A study of Homo sapiens with 24 samples.

Results

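The genes of 10 matricellular and related matrix proteins, POSTN, TNC, THBS1, THBS2, SPARC, CCN1, CCN2, TGFBI, FN1 and SPP1, were followed in human sensory neuron cultures exposed to TGF-β, to IL-4 with IL-13, or to IL-6. They were chosen by symbol, as genes known elsewhere as TGF-β or IL-13 targets, to see which of these signals each follows here. Each of the 10 had 1 entry among the 36468 of the count table, and all 10 were among the 29377 entries tested. The cultures were wild-type derivatives of 1 human embryonic stem cell line, H9 (H9WAO9 in the labels), that had been taken through vagal neural crest spheroids to sensory neurons and matured. They received the carrier alone (vehicle, bovine serum albumin in PBS), TGF-β at 2 ng/ml or IL-4 at 10 ng/ml together with IL-13 at 3 ng/ml (IL-4+IL-13), each for 5 days, or IL-6, whose dose and duration the labels do not give. Each of the 4 groups held 6 polyA RNA libraries, 1 from each of 6 batches of differentiation, so that the 24 libraries can be compared within batches. The batches are repeats of the differentiation of a single line, and RNA came from whole cultures that hold other cells beside neurons. In such bulk samples, fewer cells of a type and less RNA per cell cannot be told apart.

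Matricellular proteins are secreted into the extracellular matrix, where they tune adhesion and growth factor signalling rather than carry load. POSTN (periostin) and TGFBI share fasciclin domains and bind integrins, TNC (tenascin-C) is an anti-adhesive glycoprotein of developing and injured tissue, and the thrombospondins THBS1 and THBS2 bind CD47, CD36 and integrins. CCN1 and CCN2 are cysteine-rich adhesion proteins under the control of mechanical signals and TGF-β, and SPARC and SPP1 (osteopontin) bind collagen and integrins. FN1 (fibronectin), grouped here with the matricellular genes, is the main scaffold of provisional matrix and so a structural protein. TGF-β acts through its serine/threonine kinase receptors and SMAD transcription factors, whereas IL-4 and IL-13 share the IL-4Rα receptor chain and act through STAT6. In airway epithelium, POSTN is best known as a gene induced by IL-13, and TGFBI takes its name from its induction by TGF-β.

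The 250 bases before the RefSeq start site (GRCh38.p14) are shown for 4 of the genes on which the results turn: POSTN (chr13:37598769-37599018, minus strand), TNC (chr9:115118158-115118407, minus strand), CCN2 (chr6:131951373-131951622, minus strand) and TGFBI (chr5:136028738-136028987, plus strand). They run 5′ to 3′ on the gene's strand, and capitals mark matches to the letters searched on both strands, CAGACA for SMAD proteins, TTC and GAA with any 4 bases between them for STAT6, TTCNNNGAA for STAT3 and GGAATG for TEAD proteins.
POSTN: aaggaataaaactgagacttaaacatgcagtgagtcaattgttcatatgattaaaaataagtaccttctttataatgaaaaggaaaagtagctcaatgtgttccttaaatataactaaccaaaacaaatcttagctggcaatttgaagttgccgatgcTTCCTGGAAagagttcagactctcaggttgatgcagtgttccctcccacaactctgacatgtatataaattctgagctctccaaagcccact
TNC: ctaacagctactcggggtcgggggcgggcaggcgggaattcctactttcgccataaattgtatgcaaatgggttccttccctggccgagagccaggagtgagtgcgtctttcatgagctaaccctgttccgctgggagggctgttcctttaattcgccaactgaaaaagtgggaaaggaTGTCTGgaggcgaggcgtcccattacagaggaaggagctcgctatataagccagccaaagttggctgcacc
CCN2: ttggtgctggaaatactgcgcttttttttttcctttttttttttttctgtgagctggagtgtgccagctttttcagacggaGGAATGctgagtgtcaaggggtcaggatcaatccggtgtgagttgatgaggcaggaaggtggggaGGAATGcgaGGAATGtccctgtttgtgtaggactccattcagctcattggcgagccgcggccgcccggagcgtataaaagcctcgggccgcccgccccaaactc
TGFBI: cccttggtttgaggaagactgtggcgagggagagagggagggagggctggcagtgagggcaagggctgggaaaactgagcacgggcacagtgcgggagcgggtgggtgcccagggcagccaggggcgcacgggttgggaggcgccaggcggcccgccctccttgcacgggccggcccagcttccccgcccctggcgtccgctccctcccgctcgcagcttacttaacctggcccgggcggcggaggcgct
CCN2 held the TEAD letters at 3 places, TNC held the SMAD letters once, POSTN held the STAT3 letters once and TGFBI held none of them. These windows were available for 9 of the 10 genes, without CCN1. Of the 9, 3 held the SMAD letters, 4 the TEAD letters, 2 the STAT3 letters and 1, THBS2, the STAT6 letters, at overlapping places that also touch its TEAD letters. None of the 9 held the longer SMAD palindrome GTCTAGAC. Over 35116 promoters of the same length, 13.6% held the SMAD letters, 11.9% the TEAD letters, 6.57% the STAT3 letters, 5.38% the STAT6 letters and 0.182% the palindrome. Such a match describes the letters and says nothing of binding.

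Between 33342682 and 39817784 reads were counted per library. Libraries of a batch deviated together from their group means (median r = 0.66 over 16900 genes), with exceptions in batches 2 and 4. Between batches the median r was -0.17, but taking out the group means in itself pulls such values below 0. The vehicle library labelled batch 2 resembled the treated libraries of batch 4 (mean r = 0.50) more than those of its own batch (0.048), and the vehicle library labelled batch 4 resembled those of batch 2 (0.48) more than its own (0.17). In batch 4, the libraries of the TGF-β and the IL-4+IL-13 group also lay closer to batch 3 (mean r = 0.66 and 0.60) than to their own batch (0.45 and 0.36). Whether labels had been exchanged between libraries was not tested. The first exceptions touch every comparison with vehicle and the others every comparison that involves either of those 2 treatments, so the differences were also fitted without these 2 vehicle libraries and without all libraries of batches 2 and 4. Of 6 pluripotency markers listed, 5 were among the entries tested and were summed. In the 3 treated libraries of batch 2, their summed level was 198 to 234 in counts scaled to library size (CPM). It was 37.5 in the vehicle library of that batch and at most 83.1 elsewhere. SOX2, which neural progenitors and glia also use, carried most of it, with 5352 to 5812 counts in those 3 libraries, whereas the defining markers NANOG and POU5F1 had at most 7 counts in any library. All 12 neuronal markers listed had counts in every group, and their sum was lowest in batch 1, at 1290.0 to 2263 CPM.

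**Figure D1:**
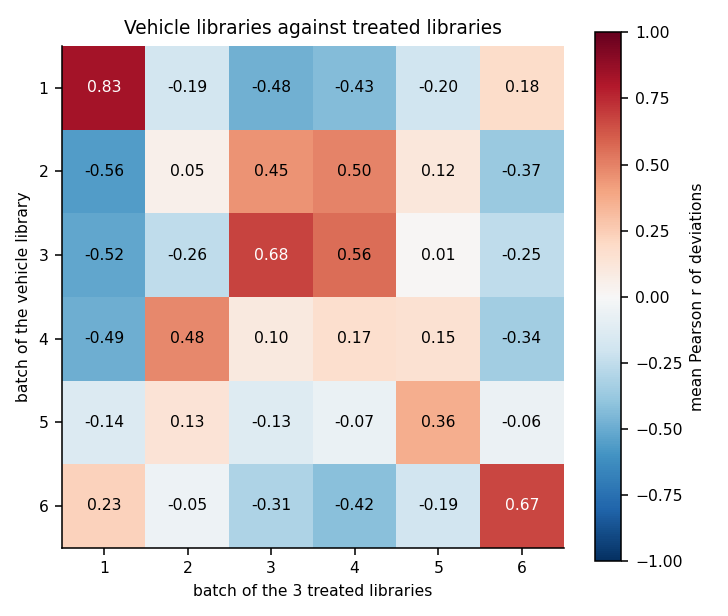
Mean Pearson correlation of each vehicle library (rows, by labelled batch) with the 3 treated libraries of each batch (columns), over deviations of log2 CPM from the group means; colour runs from -1 to 1. The vehicle libraries of batches 1, 3, 5 and 6 correlate best with their own batch, whereas that of batch 2 reaches 0.50 with batch 4 and that of batch 4 reaches 0.48 with batch 2.

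The 10 genes spanned a wide range of levels in vehicle cultures. A normalised count is the read count divided by the DESeq2 size factor of its library, and a level is the log2 of that value plus 1. Per kilobase of the canonical transcript (GENCODE, all exons), the median level was highest for SPARC, at 19539 normalised counts per kilobase, followed by CCN2 at 10646.5, TGFBI at 7088 and FN1 at 6542. SPARC stood within the top 0.226% of 16808 genes with a level above 0, CCN2 within the top 0.654%, TGFBI within the top 1.04% and FN1 within the top 1.17%. POSTN at 1864 and CCN1 at 1682 per kilobase came next, ahead of TNC at 668, THBS1 at 453 and THBS2 at 343. SPP1 was lowest, at 208 per kilobase, near the middle of the list (top 50.4%). Under IL-4+IL-13, POSTN stood at 4341 per kilobase, above TGFBI at 2555, the reverse of the order in vehicle cultures. Under TGF-β, TGFBI stood at 14494.5 and FN1 at 12880.3 per kilobase, both above CCN2 at 11539.6.

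**Figure D2:**
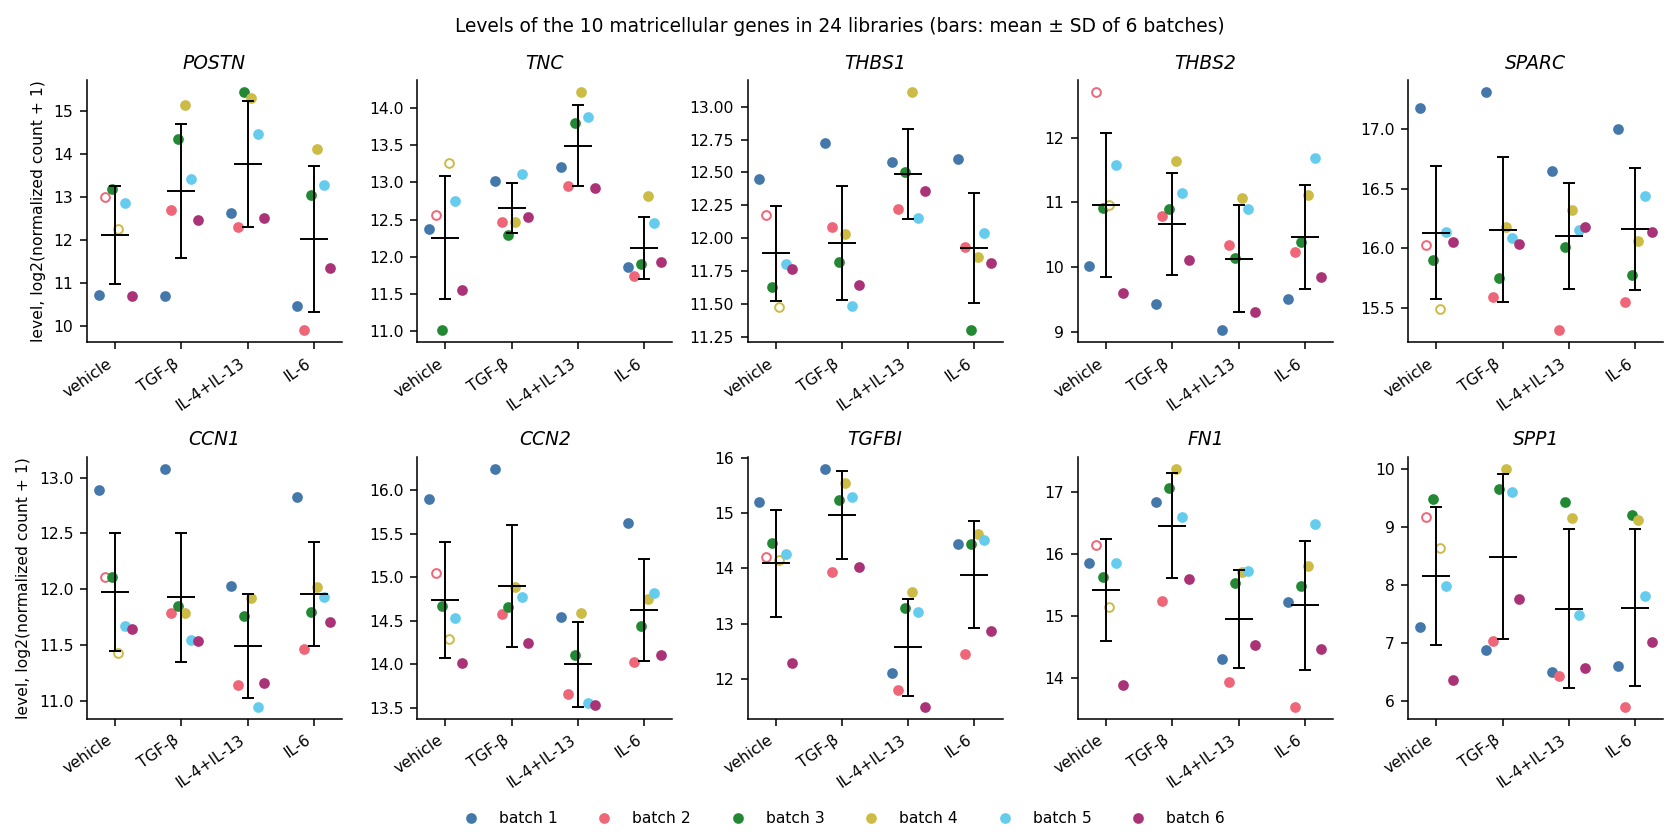
Level of each gene, log2(normalised count + 1), in the 6 libraries of each treatment group, coloured by batch, with the mean and SD as black bars; open circles are the vehicle libraries of batches 2 and 4. The TNC points under IL-4+IL-13 lie above all those under IL-6, and the TGFBI points under IL-4+IL-13 lie below all those under TGF-β. For every gene but TNC and TGFBI, batch took a larger share of the variance in level than treatment.

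Differences were fitted with edgeR in a model of batch and treatment over all 24 libraries, and a gene was called at a p adjusted over all entries under 0.05. IL-4+IL-13 moved 2 of the 10 genes against vehicle, in opposite directions. TNC rose, with a log2 fold change of 1.21 ± 0.24 (SE, adjusted p = 0.0225), and TGFBI fell, with -1.55 ± 0.28 (SE, adjusted p = 0.00975). Over all entries tested, 186 (0.633%) passed the same test, 109 higher and 77 lower. The median log2 fold change of the 10 genes was -0.53, beside -0.0077 over all entries. DESeq2 called 6 of the 10, POSTN, TNC and THBS1 higher and THBS2, CCN2 and TGFBI lower, and 583 (1.98%) of all entries. Without the vehicle libraries of batches 2 and 4, edgeR called 3 of the 10, POSTN, TNC and TGFBI, and 226 (0.776%) of all entries. Without all libraries of batches 2 and 4, it called POSTN and TNC higher and CCN2 lower, and 205 (0.724%) of all entries.

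Against vehicle, TGF-β moved none of the 10 genes past the threshold in edgeR or in DESeq2. The largest estimates were those of FN1, 0.90 ± 0.37 (SE, adjusted p = 0.553), POSTN, 0.85 ± 0.44 (SE, adjusted p = 0.75), and TGFBI, 0.79 ± 0.27 (SE, adjusted p = 0.374), none of which passed. Over all entries 102 (0.347%) passed, 24 higher and 78 lower, and 526 (1.79%) in DESeq2. None of the 10 passed either without the 2 vehicle libraries or without all libraries of batches 2 and 4, where 90 (0.309%) and 23 (0.0812%) of all entries did. The median over the 10 genes was 0.17, beside -0.012 over all entries. FN1 and TGFBI were higher under TGF-β in 5 of 6 batches, batch 2 being the exception for both. Without batch 2, FN1 passed, with 1.39 ± 0.26 (SE, adjusted p = 0.0362), beside 133 (0.46%) of all entries. That fit kept batch 4, whose vehicle library also resembled another batch and where FN1 differed most, by 2.22. Without all libraries of batches 2 and 4, FN1 stood at 1.21 ± 0.31 (SE, adjusted p = 0.237). Without their vehicle libraries alone it stood at 1.28 ± 0.27 (SE, adjusted p = 0.0741).

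Compared directly with each other, the 2 treatments differed for 3 of the 10 genes, all higher under TGF-β. TGFBI differed by 2.34 ± 0.28 (SE, adjusted p = 9.24e-05), FN1 by 1.49 ± 0.36 (SE, adjusted p = 0.0296) and CCN2 by 0.87 ± 0.18 (SE, adjusted p = 0.00802), each in the same direction in 6 of 6 batches. The comparison does not involve vehicle, and it called 874 entries (2.98%) over the whole table, 317 higher under TGF-β and 557 lower. The median over the 10 genes was 0.48, beside -0.0048 over all entries. DESeq2 added TNC and THBS1, both lower under TGF-β (adjusted p = 0.0094 and 0.0266), where 1567 (5.33%) of all entries were called. With the 2 vehicle libraries left out of the fit, which changes the shared estimate of the spread and of the batches, edgeR called 7 of the 10: TNC lower, and THBS2, CCN1, CCN2, TGFBI, FN1 and SPP1 higher under TGF-β. The calls over all entries then rose likewise, to 1676 (5.75%). Without all libraries of batches 2 and 4, the genes called were again TGFBI, FN1 and CCN2, beside 1043 (3.68%) of all entries.

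IL-6 moved none of the 10 genes against vehicle. Here edgeR called 0 of all entries (0%), with 1400 at an unadjusted p under 0.05, and DESeq2 called 167 (0.568%), none of them among the 10. The estimates of the 10 genes lay between -0.69 for SPP1 and 0.042 for THBS1. Between TGF-β and IL-6, edgeR called none of the 10 and 23 entries in all (0.0783%), while DESeq2 called TGFBI and FN1, with 500 (1.7%) over all entries. The same 2 genes were called by edgeR without the 2 vehicle libraries, with 236 (0.81%) over all entries, and none of the 10 without all libraries of batches 2 and 4, with 14 (0.0494%). Between IL-4+IL-13 and IL-6, TNC was higher, with 1.41 ± 0.24 (SE, adjusted p = 0.00742), and TGFBI lower, with -1.28 ± 0.27 (SE, adjusted p = 0.0411), in 6 of 6 batches each, among 134 entries called (0.456%). DESeq2 called 4 of the 10 in that comparison, with POSTN and THBS1 higher besides, and 377 (1.28%) of all entries. Without the 2 vehicle libraries edgeR called 4, with POSTN higher and CCN2 lower besides, and 250 (0.858%) of all entries. Without all libraries of batches 2 and 4 it called POSTN and TNC, while TGFBI stood at -1.46 ± 0.31 (SE, adjusted p = 0.0945), and 148 (0.523%) of all entries. Since the comparisons share vehicle or IL-6 libraries, their values stand side by side and are not independent.

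**Figure D3:**
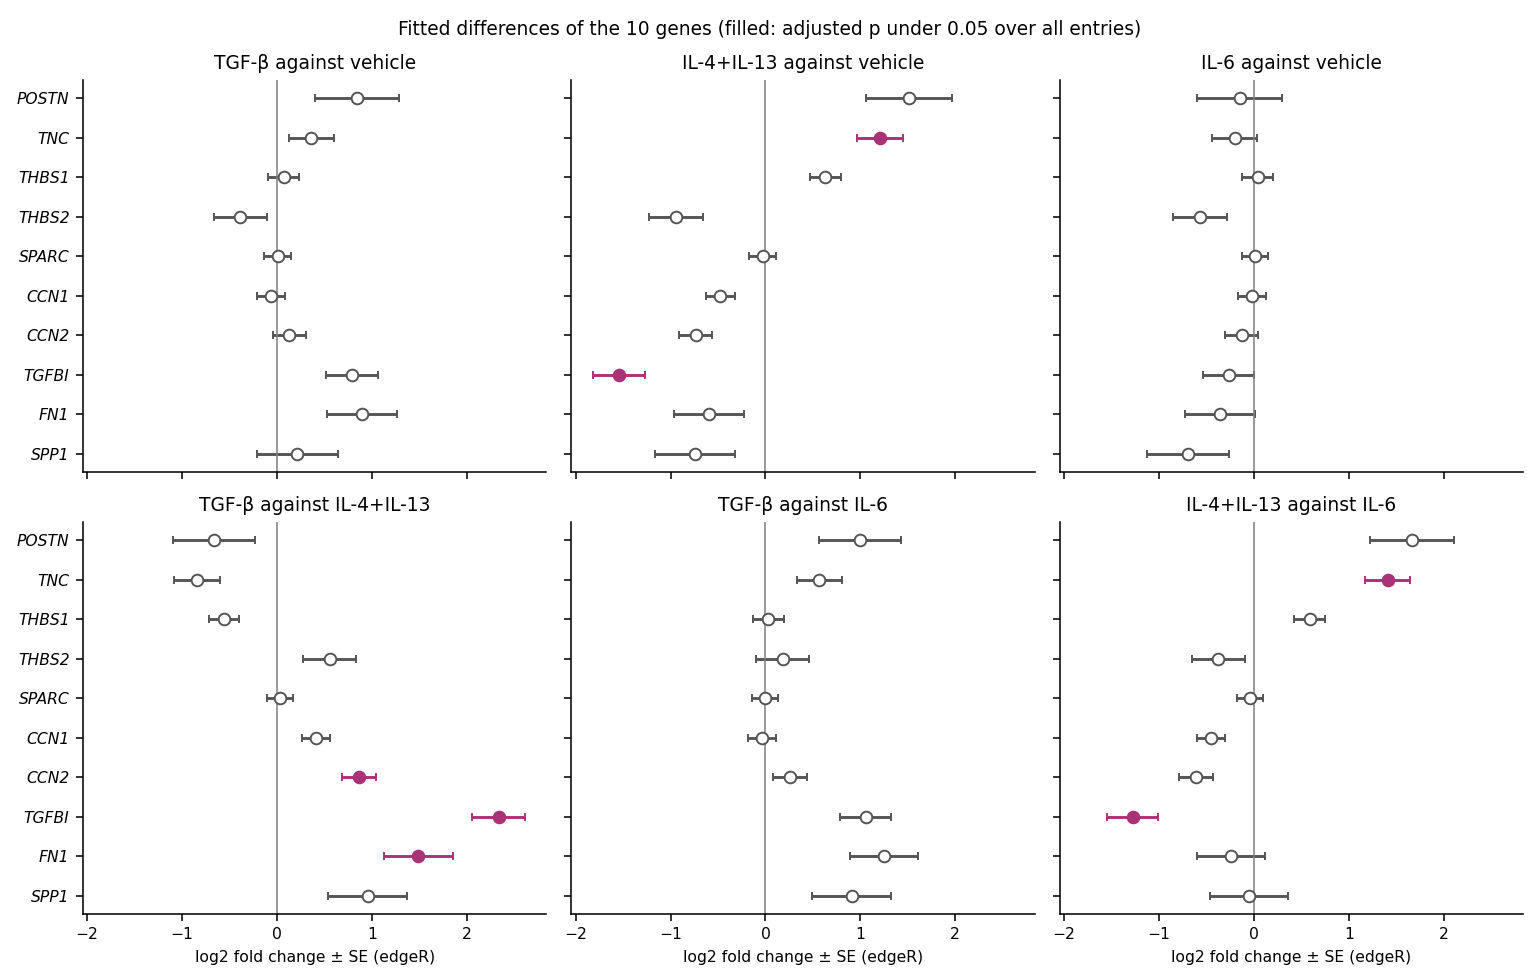
Fitted log2 fold change with its SE for each gene in the 6 comparisons (edgeR, model of batch and treatment, 24 libraries); filled purple points passed at an adjusted p under 0.05 over all entries tested. Filled points are TNC and TGFBI for IL-4+IL-13 against vehicle and against IL-6, and CCN2, TGFBI and FN1 for TGF-β against IL-4+IL-13.

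Leaving out the vehicle libraries of batches 2 and 4 moved the median of the 10 genes upwards in each of the 3 comparisons with vehicle. Under TGF-β it was then 0.44, with log2 fold changes of 1.28 for FN1, 1.21 for POSTN, 0.97 for TGFBI and 0.69 for TNC, none of which passed. The other 6 were 0.73 for SPP1, 0.18 for CCN2, 0.031 for THBS1, 0.0053 for SPARC, -0.071 for THBS2 and -0.077 for CCN1. Under IL-4+IL-13 the median was -0.20, with 1.79 for POSTN, 1.55 for TNC and 0.57 for THBS1 on the higher side and -1.36 for TGFBI, -0.70 for CCN2, -0.62 for THBS2 and -0.51 for CCN1 on the lower. The remaining 3 were -0.21 for SPP1, -0.19 for FN1 and -0.039 for SPARC. Under IL-6 the median was -0.027 and the 10 estimates lay between -0.28 and 0.14.

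POSTN (chr13:37562585-37598768, minus strand, 23 exons) encodes periostin (positions here and for the other genes are those of RefSeq on GRCh38.p14, and exons those of the canonical GENCODE transcript). In vehicle cultures, the normalised counts of POSTN ran from 1664 to 9204 with a median of 6154.5, and under TGF-β from 1654 to 35706 with a median of 8801. Under IL-4+IL-13, POSTN lay between 4986 and 44053 with a median of 14329, and under IL-6 between 953 and 17576 with a median of 5507. The 4 groups overlapped, and the medians were highest under IL-4+IL-13 and next highest under TGF-β. Within batches, POSTN under IL-4+IL-13 differed from vehicle by -0.71 to 3.05 on the log2 scale and was higher in 5 of 6, batch 2 being the exception. The fitted difference was 1.52 ± 0.45 (SE, adjusted p = 0.224) in edgeR, which did not pass, and the adjusted p in DESeq2 was 0.0316. The difference passed in edgeR at 1.79 ± 0.36 (SE, adjusted p = 0.0329) without the vehicle libraries of batches 2 and 4, and at 2.07 (adjusted p = 0.00586) without batch 2. The fit without batch 2 kept batch 4, where POSTN differed most. Without all libraries of both batches the difference was 1.91 ± 0.29 (SE, adjusted p = 0.0149). Against IL-6, which does not rest on vehicle, POSTN was higher under IL-4+IL-13 in 6 of 6 batches, by 1.17 to 2.39, with 1.67 ± 0.44 (SE, adjusted p = 0.188) in edgeR and an adjusted p of 0.0132 in DESeq2. Under TGF-β it was higher than vehicle in 4 of 6 batches, with differences from -0.30 in batch 2 to 2.87 in batch 4. The direct difference between TGF-β and IL-4+IL-13 was -0.67 ± 0.43 (SE, adjusted p = 0.634), so the order of these groups was not resolved.

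TGFBI (chr5:136028988-136063818, plus strand, 17 exons) encodes the other fasciclin-domain protein of the list, a TGF-β-induced adhesion protein. TGFBI had 4991 to 37472 normalised counts in vehicle cultures, with a median of 19222, and 15614 to 57040.4 under TGF-β, with a median of 39309. With IL-4+IL-13 its range was 2893 to 12149, with a median of 6930.4, and with IL-6 it was 5581 to 25303, with a median of 22272. No IL-4+IL-13 library reached the lowest TGF-β library, while vehicle and IL-6 overlapped both. TGFBI was lower under IL-4+IL-13 than under vehicle in 6 of 6 batches, with differences from -0.59 in batch 4 to -3.08 in batch 1, and the fitted difference was -1.55 ± 0.28 (SE, adjusted p = 0.00975). In the 4 batches other than 2 and 4, the difference lay between -3.08 and -0.79. The fitted call was lost without batch 1 (adjusted p = 0.052) or batch 3 (0.0587), without the IL-6 libraries (0.0527) or without all libraries of batches 2 and 4 (0.0683), and was kept at -1.36 ± 0.27 (SE, adjusted p = 0.0268) without the vehicle libraries of batches 2 and 4. Under TGF-β the level exceeded vehicle in 5 of 6 batches, with 0.79 ± 0.27 (SE, adjusted p = 0.374). The direct difference of 2.34 ± 0.28 (SE, adjusted p = 9.24e-05) was the largest of the 10 genes and passed in every alternative run, at log2 fold changes of 2.13 to 2.43 when single batches were left out.

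TNC (chr9:115019575-115118157, minus strand, 28 exons) encodes tenascin-C. Normalised counts of TNC spanned 2060.5 to 9822 in vehicle cultures (median 5675.4) and 5033 to 8890.2 under TGF-β (median 5786). They spanned 7776 to 19009 under IL-4+IL-13 (median 11842) and 3409.8 to 7200 under IL-6 (median 3862.4). The lowest IL-4+IL-13 library stood above the highest IL-6 library, whereas vehicle overlapped with every group. TNC was higher under IL-4+IL-13 than under vehicle in 6 of 6 batches, by 0.39 to 2.79. The differences of batches 2 and 4, 0.39 and 0.95, rest on the vehicle libraries that resembled another batch, and in the other 4 batches TNC was higher by 0.84 to 2.79. The fitted difference of 1.21 ± 0.24 (SE, adjusted p = 0.0225) was kept at 1.55 ± 0.27 (SE, adjusted p = 0.0114) without the vehicle libraries of batches 2 and 4. It was lost on leaving out batch 1, 3, 5 or 6, with adjusted p = 0.0738, 0.0811, 0.125 and 0.123, or the IL-6 libraries (0.104). Under TGF-β, TNC differed from vehicle by 0.36 ± 0.24 (SE, adjusted p = 0.848), and from IL-4+IL-13 by -0.84 ± 0.24 (SE, adjusted p = 0.0691), lower in 6 of 6 batches. That last difference passed in DESeq2 (adjusted p = 0.0094) and in edgeR without the 2 vehicle libraries (0.0338).

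**Figure D4:**
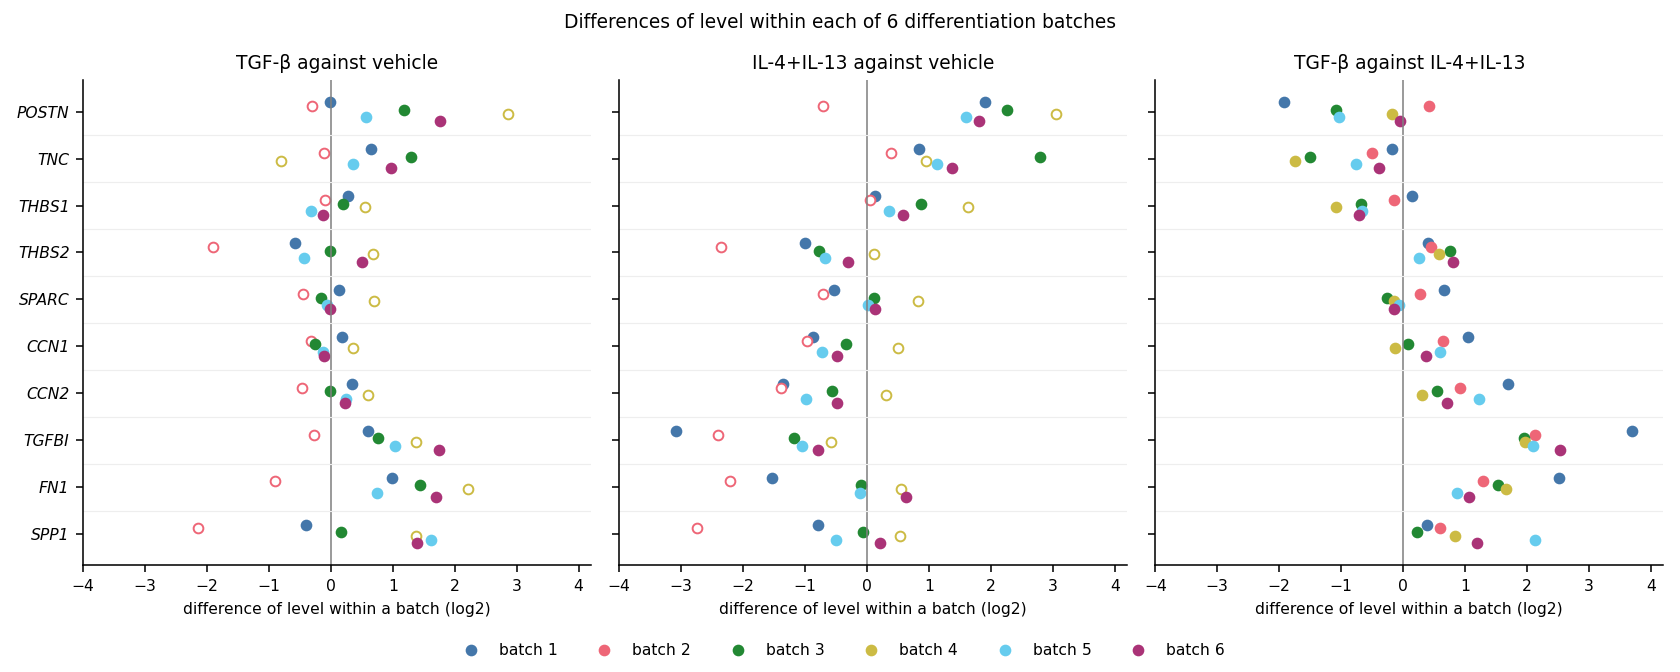
Differences of level within each of the 6 batches for TGF-β against vehicle, IL-4+IL-13 against vehicle and TGF-β against IL-4+IL-13, 1 point per batch and gene; open circles in the first 2 panels are the batches whose vehicle library resembled another batch. TNC lies to the right and TGFBI to the left of 0 in all 6 batches for IL-4+IL-13 against vehicle, and CCN2, TGFBI and FN1 lie to the right in all 6 for TGF-β against IL-4+IL-13.

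THBS1 (chr15:39581079-39599466, plus strand, 22 exons) encodes thrombospondin-1, an activator of latent TGF-β. In vehicle cultures, the normalised counts of THBS1 ran from 2847 to 5601 with a median of 3528, and under TGF-β from 2871 to 6761 with a median of 3899. Under IL-4+IL-13, THBS1 lay between 4566 and 8845 with a median of 5535, and under IL-6 between 2521 and 6226 with a median of 3808. The IL-4+IL-13 libraries had the highest median, and all groups overlapped. THBS1 was higher under IL-4+IL-13 than under vehicle in 6 of 6 batches, but by as little as 0.046 in batch 2 and as much as 1.63 in batch 4, the batches of the doubtful vehicle libraries. The fitted difference was 0.63 ± 0.16 (SE, adjusted p = 0.108) in edgeR, with an adjusted p of 0.017 in DESeq2 and 0.57 ± 0.18 (SE, adjusted p = 0.251) in edgeR without those libraries. Between TGF-β and vehicle it was 0.071 ± 0.16 (SE, adjusted p = 0.98), and between TGF-β and IL-4+IL-13 -0.56 ± 0.16 (SE, adjusted p = 0.0765), lower under TGF-β in 5 of 6 batches.

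THBS2 (chr6:169215785-169253846, minus strand, 22 exons) encodes thrombospondin-2, a relative with the same domains but without the TGF-β activating sequence. THBS2 had 776 to 6666 normalised counts in vehicle cultures, with a median of 1956, and 692 to 3191 under TGF-β, with a median of 1843. With IL-4+IL-13 its range was 520.5 to 2143, with a median of 1214, and with IL-6 it was 727 to 3302, with a median of 1271. The highest value of all was the vehicle library of batch 2. THBS2 was lower under IL-4+IL-13 than under vehicle in 5 of 6 batches, with -0.94 ± 0.28 (SE, adjusted p = 0.221) in edgeR, an adjusted p of 0.0298 in DESeq2 and -0.62 ± 0.16 (SE, adjusted p = 0.11) without the 2 vehicle libraries. It was higher in TGF-β cultures than in IL-4+IL-13 cultures in 6 of 6 batches, by 0.25 to 0.80. This direct difference of 0.55 ± 0.28 (SE, adjusted p = 0.447) passed without the 2 vehicle libraries, at 0.55 ± 0.14 (SE, adjusted p = 0.0254). The difference between TGF-β and vehicle, -0.39 ± 0.28 (SE, adjusted p = 0.877), was -0.071 ± 0.16 (SE, adjusted p = 0.958) without the 2 vehicle libraries and turned to 0.018 without batch 2.

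CCN2 (chr6:131948176-131951372, minus strand) and CCN1 (chr1:85580761-85583950, plus strand), each of 5 exons in the canonical transcript, encode connective tissue growth factor and its relative CYR61. Normalised counts of CCN2 spanned 16582 to 61112.5 in vehicle cultures (median 24892) and 19451 to 77611 under TGF-β (median 26979.5). They spanned 11876 to 24647 under IL-4+IL-13 (median 15311) and 16664 to 50369.9 under IL-6 (median 24974). The IL-4+IL-13 libraries were the lowest by median, and the groups overlapped. CCN2 was higher in TGF-β cultures than in IL-4+IL-13 cultures in 6 of 6 batches, by 0.30 to 1.70, with 0.87 ± 0.18 (SE, adjusted p = 0.00802). That call was lost without batch 1 (adjusted p = 0.0586) or batch 5 (0.0528). Against vehicle, CCN2 differed by 0.13 ± 0.18 (SE, adjusted p = 0.964) under TGF-β and by -0.74 ± 0.18 (SE, adjusted p = 0.0719) under IL-4+IL-13. The latter passed in DESeq2 (adjusted p = 0.00502) and, in edgeR, without batch 4 (0.0135), where the level under IL-4+IL-13 was above vehicle.

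CCN1 did not pass in any comparison fitted to the 24 libraries. In vehicle cultures, the normalised counts of CCN1 ran from 2753 to 7607 with a median of 3832, and under TGF-β from 2963 to 8657 with a median of 3532. Under IL-4+IL-13, CCN1 lay between 1972 and 4171.5 with a median of 2878, and under IL-6 between 2818 and 7273 with a median of 3734.5. CCN1 was lower under IL-4+IL-13 than under vehicle in 5 of 6 batches, again except batch 4, with -0.47 ± 0.15 (SE, adjusted p = 0.244), and -0.51 ± 0.14 (SE, adjusted p = 0.145) without the 2 vehicle libraries. Its direct difference between TGF-β and IL-4+IL-13 was 0.41 ± 0.15 (SE, adjusted p = 0.189), higher in 5 of 6 batches. It passed in the fit without the 2 vehicle libraries, at 0.43 ± 0.12 (SE, adjusted p = 0.0476). TGF-β against vehicle gave -0.061 ± 0.15 (SE, adjusted p = 0.98). CCN1 was highest in batch 1 in every group, and CCN2 likewise except under IL-4+IL-13, where batch 4 was highest.

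FN1 (chr2:215360865-215436068, minus strand, 46 exons) encodes fibronectin, which also coated the culture plates as a protein. FN1 had 15249 to 72798 normalised counts in vehicle cultures, with a median of 54888, and 38854 to 169499 under TGF-β, with a median of 108066. With IL-4+IL-13 its range was 15802 to 54439, with a median of 35573, and with IL-6 it was 11932 to 91766.5, with a median of 42195. The TGF-β libraries had the highest median and overlapped with each other group. FN1 was higher in TGF-β cultures than in IL-4+IL-13 cultures in 6 of 6 batches, by 0.86 to 2.52, with 1.49 ± 0.36 (SE, adjusted p = 0.0296). Leaving out any batch but batch 2 ended the call, at adjusted p = 0.0597 to 0.144, as did leaving out the IL-6 libraries (0.0633). Without the 2 vehicle libraries it was 1.47 ± 0.23 (SE, adjusted p = 0.00132). Against IL-6, FN1 was higher under TGF-β in 6 of 6 batches, with 1.25 ± 0.36 (SE, adjusted p = 0.258) in edgeR, 1.28 ± 0.23 (SE, adjusted p = 0.0216) in edgeR without the 2 vehicle libraries and an adjusted p of 0.0178 in DESeq2. Under IL-4+IL-13 it differed from vehicle by -0.59 ± 0.37 (SE, adjusted p = 0.667), lower in 4 of 6 batches, and by -0.19 ± 0.27 (SE, adjusted p = 0.937) without the 2 vehicle libraries.

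SPARC (chr5:151661096-151686915, minus strand, 10 exons), a collagen-binding glycoprotein gene, had about the same level in all 4 groups. Normalised counts of SPARC spanned 46023 to 147672 in vehicle cultures (median 67429) and 49168.5 to 162338 under TGF-β (median 68202). They spanned 40635 to 102472 under IL-4+IL-13 (median 73513) and 47991.5 to 131216 under IL-6 (median 70168.5). The groups overlapped. None of its 6 fitted differences passed, and they lay between -0.04 and 0.034, each with an SE of 0.14, and batch accounted for 81.7% of its variance in level against 0.22% for treatment.

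SPP1 (chr4:87975714-87983411, plus strand, 7 exons) encodes osteopontin. In vehicle cultures, the normalised counts of SPP1 ran from 81.6 to 721 with a median of 324, and under TGF-β from 117 to 1029.9 with a median of 496. Under IL-4+IL-13, SPP1 lay between 85.3 and 690.5 with a median of 136, and under IL-6 between 58.7 and 589 with a median of 176. All groups overlapped. SPP1 was higher in TGF-β cultures than in IL-4+IL-13 cultures in 6 of 6 batches and than under IL-6 in 6 of 6, with 0.96 ± 0.41 (SE, adjusted p = 0.336) and 0.91 ± 0.41 (SE, adjusted p = 0.64). The first passed without the 2 vehicle libraries, at 0.94 ± 0.22 (SE, adjusted p = 0.0167). Against vehicle, it differed by 0.21 ± 0.43 (SE, adjusted p = 0.978) under TGF-β and by -0.74 ± 0.43 (SE, adjusted p = 0.639) under IL-4+IL-13. Without the 2 vehicle libraries these were 0.73 ± 0.26 (SE, adjusted p = 0.354) and -0.21 ± 0.26 (SE, adjusted p = 0.918). Batch 2 lay lowest in each of the 3 differences from vehicle.

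By mean level, TNC was ordered IL-4+IL-13, TGF-β, vehicle and IL-6 from high to low, and TGFBI was ordered TGF-β, vehicle, IL-6 and IL-4+IL-13. TNC had a mean log2 level of 12.25 ± 0.83 with vehicle, 12.65 ± 0.34 under TGF-β, 13.50 ± 0.54 under IL-4+IL-13 and 12.12 ± 0.42 under IL-6 (SD, n = 6 each). Among neighbours in the order of TNC, none passed the test. TGFBI had a mean log2 level of 14.09 ± 0.96 with vehicle, 14.97 ± 0.79 under TGF-β, 12.58 ± 0.88 under IL-4+IL-13 and 13.89 ± 0.97 under IL-6 (SD, n = 6 each). Among neighbours in the order of TGFBI, IL-6 and IL-4+IL-13 differed, and TGF-β and vehicle, or vehicle and IL-6, did not pass. POSTN had a mean log2 level of 12.11 ± 1.13 with vehicle, 13.12 ± 1.56 under TGF-β, 13.77 ± 1.46 under IL-4+IL-13 and 12.02 ± 1.69 under IL-6 (SD, n = 6 each). FN1 had a mean log2 level of 15.42 ± 0.82 with vehicle, 16.45 ± 0.84 under TGF-β, 14.96 ± 0.79 under IL-4+IL-13 and 15.17 ± 1.04 under IL-6 (SD, n = 6 each). No neighbouring groups of POSTN or FN1 passed the test. The SD over batches exceeded 1 in every group for POSTN and SPP1 and stayed at or below 0.43 for THBS1. Batch took 60.2% of the variance in level of POSTN and treatment 22.5%, whereas for TNC the shares were 24.9% and 52.3% and for TGFBI 36.6% and 51.9%.

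Several of the 10 genes varied together after the batch mean had been taken out of log2 CPM, described here over 24 libraries that share batches, depth and treatments. CCN1 and CCN2 correlated at r = 0.93, CCN2 and TGFBI at 0.91 and TGFBI and FN1 at 0.84. POSTN, TNC and THBS1 correlated with each other at 0.62 to 0.65, and TNC with CCN1, CCN2 and TGFBI at -0.44, -0.43 and -0.40. THBS2 correlated with SPP1 at 0.77 and with CCN2 at 0.72, SPARC with CCN1 at 0.70 and with THBS1 at 0.51, and POSTN with SPP1 at 0.38 and with FN1 at 0.33. Of 13283 other genes with a mean count of at least 50, those most like POSTN were TNFAIP6 (r = 0.89), C1QTNF1 (r = 0.88), COL6A2 (r = 0.86), those most like TNC were MALT1 (0.87), DPYD (0.84), AZIN2 (0.82) and those most like THBS1 were OLFML2A (0.89), FOXQ1 (0.88), IKBIP (0.87). TGFBI was most like LIF (0.98), TMEM92 (0.97), ITGA11 (0.97), CCN2 most like COL11A1 (0.97), GASK1B (0.97), TPM1 (0.96) and FN1 most like ADAM19 (0.95), MMP14 (0.95), CSPG4 (0.94).

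Known target genes of each signal were counted, from lists written from general knowledge with earlier results of these data known. The counts describe these genes and are no independent check on the treatments. Of all entries tested, 0.633% were called under IL-4+IL-13, 0.347% under TGF-β and 0% under IL-6, each against vehicle. Between TGF-β and IL-4+IL-13 the share was 2.98%. Of 8 IL-4 and IL-13 response genes, 7 rose under IL-4+IL-13 (median 2.46), among them the lipoxygenase gene ALOX15 by 10.58 ± 0.43 (SE, adjusted p = 1.28e-10) and the eotaxin-3 gene CCL26 by 7.86 ± 0.60 (SE, adjusted p = 1.63e-06), and none was called under TGF-β or IL-6. Of 12 TGF-β response genes, 0 were called under TGF-β against vehicle (median 0.27), and 2 fell under IL-4+IL-13, among them LTBP2, a gene of the latent TGF-β binding protein family, with a log2 fold change of -1.12 ± 0.25 (SE, adjusted p = 0.0497). Between TGF-β and IL-4+IL-13, 8 of the 12 were higher under TGF-β (median 1.04), including PMEPA1, a feedback inhibitor of SMAD signalling, by 1.73 ± 0.22 (SE, adjusted p = 1.22e-04). Of 9 IL-6 response genes, 0 were called under IL-6 (median -0.15), and SERPINA3 was lower under IL-4+IL-13. Without the 2 vehicle libraries, 8 of 8 IL-4 and IL-13 response genes and 1 of 12 TGF-β response genes rose under their own treatment, and 0 of 9 did under IL-6. The shares over all entries were then 0.776%, 0.309% and 0% in the same order. Of 12 TEAD and YAP targets, 1 fell under IL-4+IL-13, the ankyrin repeat gene ANKRD1, with -1.08 ± 0.19 (SE, adjusted p = 0.00899), and 2 were higher in TGF-β cultures than in IL-4+IL-13 cultures.

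Several receptors of matricellular proteins differed between the 2 treatments. Of 18 receptor genes, 0 were called under any treatment against vehicle, and 5 were higher in TGF-β cultures than in IL-4+IL-13 cultures, with none lower (median over the list 0.14). Over all entries, 2.98% were called between these 2 treatments. Against vehicle, 0.347% were called under TGF-β, 0.633% under IL-4+IL-13 and 0% under IL-6. The 4 with the smallest adjusted p were the integrin subunit genes ITGB6, which differed by 1.43 ± 0.26 (SE, adjusted p = 0.00393), ITGB1 by 0.73 ± 0.15 (SE, adjusted p = 0.00795) and ITGAV by 0.73 ± 0.16 (SE, adjusted p = 0.014), and the syndecan gene SDC1 by 0.42 ± 0.10 (SE, adjusted p = 0.0221). Of 31 other matricellular genes tested (32 listed), 1 was called under TGF-β against vehicle, SPARCL1, a relative of SPARC, which fell with a log2 fold change of -1.05 ± 0.18 (SE, adjusted p = 0.0159). It was also lower in TGF-β cultures than in IL-4+IL-13 cultures, with -1.32 ± 0.18 (SE, adjusted p = 2.62e-04), where CTHRC1 and FBLN2 were higher, by 0.63 ± 0.11 (SE, adjusted p = 0.00286) and 0.58 ± 0.12 (SE, adjusted p = 0.0104). Under IL-4+IL-13 and under IL-6, 0 of the 31 were called against vehicle.

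RNA of whole cultures does not show which cells transcribed the 10 genes. Markers of cell types were summed in each library, first those listed for mesenchymal cells. The summed level of 12 such markers was 4737 to 12961 CPM in vehicle libraries, 5998 to 16480.3 under TGF-β, 4142 to 7761 under IL-4+IL-13 and 5131.5 to 10529.6 under IL-6, with none of the 12 at 0 throughout a group. None was called against vehicle, and COL1A1, which is also on the TGF-β response list, and FAP, both named after their values were seen, were higher in TGF-β cultures than in IL-4+IL-13 cultures, by 1.31 ± 0.26 (SE, adjusted p = 0.00675) and 1.60 ± 0.37 (SE, adjusted p = 0.022). The median of the 12 in that comparison was 0.078, with values from -0.30 to 1.60. In batch 1, CCN1 was highest in every group and CCN2 in every group but IL-4+IL-13. The sum in that batch was 12961 CPM in the vehicle library, 16480.3 in the TGF-β library and 10529.6 in the IL-6 library. In the IL-4+IL-13 library of batch 1 it was 6475 CPM, below the 7761 of batch 4 and the 7244 of batch 5. The part of mesenchymal cells in the differences of the 10 genes was not tested. Sums of 12 neuronal markers were 1391 to 5654, 1290.0 to 6237, 2263 to 5523 and 1905 to 5479 CPM in the same order of groups, and 1 of the 12 was called, higher under IL-4+IL-13 than under each of vehicle, TGF-β and IL-6. Of 7 epithelial markers, CDH1, named after its values were seen, fell under IL-4+IL-13, with -1.89 ± 0.34 (SE, adjusted p = 0.00957). The median of the 7 under IL-4+IL-13 against vehicle was -0.24, with values from -3.38 to -0.098. Of 10 markers of Schwann and satellite glia, 1 was called, higher under TGF-β than under each of the other groups. Shares of all entries called were 0.633% for IL-4+IL-13 against vehicle, 0.347% for TGF-β against vehicle and 2.98% for TGF-β against IL-4+IL-13. With IL-6 as the reference, they were 0.0783% for TGF-β and 0.456% for IL-4+IL-13. Between TGF-β and IL-4+IL-13, 1 of 7 smooth muscle markers, LMOD1, and 1 of 6 endothelial markers, KDR, both named after their values were seen, were lower under TGF-β, with -0.90 ± 0.23 (SE, adjusted p = 0.0328) and -1.30 ± 0.27 (SE, adjusted p = 0.0116). The smooth muscle list had a median of -0.019 there, with values from -0.90 to 0.52. The endothelial list had a median of -0.84, with values from -1.88 to -0.68. Markers of Schwann and satellite glia summed to 279 to 417 CPM over the 24 libraries, those of smooth muscle to 363 to 1741, epithelium to 230.2 to 1066, endothelium to 20.2 to 173 and leukocytes, with AIF1 at 0 in every library, to 13.6 to 68.8.

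Where a gene's span overlaps that of another annotated gene, some reads could have been counted for either gene. Only whole spans, introns included, were compared, and overlap of exons was not tested. The strandedness of the counting is not given in the sources used here. In GENCODE, the span overlapped that of another gene for TNC (DELEC1), THBS1 (FSIP1, THBS1-AS1 and THBS1-IT1), THBS2 (THBS2-AS1), SPARC (CLMAT3), CCN2 (LINC01013) and SPP1 (an unnamed gene), but not for POSTN, CCN1, TGFBI or FN1.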

How the data were processed

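Polyadenylated RNA of 24 libraries was sequenced on an Illumina NovaSeq instrument. The authors deposited raw read counts per gene, made after FastQC and trimming with Trimmomatic (v0.30 per the labels) against GRCh38.p14, and the aligner, counter and strandedness are not given in the sources used here. Groups and batches were taken from the labels, and the 6 libraries of a group are separate batches of 1 line. No deposited column was left unused.

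Counts were tested with edgeR 4.0.16 (limma 3.58.1, R 4.3.3): quasi-likelihood F test with robust dispersion, TMM, a model of batch and treatment as in the study's methods, entries with a total count of at least 10 (29377 of 36468 entries, 13161 of the 36468 being unnamed new genes), and Benjamini-Hochberg adjustment over all of them, with calls at an adjusted p under 0.05. The SE is the fold change divided by the square root of F. Levels are log2(normalised count + 1) with DESeq2 1.42.0 size factors. Alternatives were DESeq2, other size factors and filters, no block, a fold limit, first entries only, a dispersion that is not robust, and leaving out batches or groups. Batch is a block in the study's model, and same-batch libraries were checked to deviate together (median r = 0.66 over 36 pairs, lowest -0.05). On simulated counts for TGF-β against vehicle (28748 entries), 79% of 100 genes changed by a log2 fold of 1 and 97% of 100 changed by 2 were recovered, with 4 false calls.

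The 10 genes and the lists were chosen with earlier results of these data known. All 10 are named, as are up to 4 called genes per list with the smallest adjusted p and the same direction in at least 5 of 6 batches, and the 3 genes most correlated with each called gene and with POSTN, TNC and THBS1. The comparison of protein sequences was not run, and some listed genes are not reported here. Total counts of 33342682 to 39817784 gave every one of the 10 genes at least 53 reads in each library.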

Additional observations from a re-analysis of the deposited data

Results flagged for a closer look

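Of 80 sets of 6 values (levels of each gene in each group, and differences within batches for 4 comparisons), 7 had 1 value whose gap to the nearest other exceeded Dixon's limit, where chance gives about 1 in 20, or 4. In the TGF-β library of batch 1, the levels were 17.31 for SPARC (15.59 to 16.18 in the other 5), 13.08 for CCN1 (11.53 to 11.85) and 16.24 for CCN2 (14.25 to 14.89). In the same batch, TGFBI differed between TGF-β and IL-4+IL-13 by 3.69 (1.95 to 2.53 in the others). These 4 lie in the batch with the lowest sums of neuronal markers and, in every group but IL-4+IL-13, the highest sums of mesenchymal markers, whose part was not tested. The vehicle library of batch 6 had a TGFBI level of 12.29 (14.16 to 15.19 in the other 5). Between IL-6 and vehicle, THBS2 differed by -2.46 in batch 2 (-0.53 to 0.25 in the others) and SPP1 by -3.28 (-0.68 to 0.66), both resting on a vehicle library that resembled batch 4.

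The direct test of TGF-β against IL-4+IL-13, which is also the test of the difference between their effects against vehicle, passed for 3 genes, with log2 fold changes of 0.87 for CCN2, 2.34 for TGFBI and 1.49 for FN1, each higher under TGF-β in 6 of 6 batches.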

How the results depend on the processing

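Of 630 alternative values of 40 fold changes, 561 kept their direction and side of the threshold, 21 no longer passed, 20 newly passed and 28 changed sign, none of the 28 called. Against the main counts of called genes among the 10 (2 for IL-4+IL-13 against vehicle, 3 for TGF-β against IL-4+IL-13, 2 for IL-4+IL-13 against IL-6, and 0 for the others), DESeq2 called 6, 5 and 4, and 2 for TGF-β against IL-6. Without batch as a block, ignoring the paired design, the counts were 0, 1 and 0. Without the IL-6 libraries, IL-4+IL-13 against vehicle kept 0. Leaving out single batches gave 0 to 4 for IL-4+IL-13 against vehicle, 1 to 4 for TGF-β against IL-4+IL-13, 0 to 3 for IL-4+IL-13 against IL-6 and 0 to 1 for TGF-β against vehicle, where batch 2 decided the call of FN1. Without the vehicle libraries of batches 2 and 4 (chosen after seeing the data), the counts were 7 for TGF-β against IL-4+IL-13, 2 for TGF-β against IL-6 and 4 for IL-4+IL-13 against IL-6, and this setting also gave the highest edgeR counts over all entries in these 3, 1676, 236 and 250. The cause of these changes was not tested. Over single batches left out, estimates that changed sign ran, for TGF-β against vehicle, over -0.57 to 0.018 for THBS2, -0.10 to 0.10 for SPARC and -0.12 to 0.86 for SPP1. They ran over -0.18 to 0.11 for SPARC under IL-4+IL-13 against vehicle and -0.091 to 0.11 between the 2 treatments. For IL-6 against vehicle they ran over -0.46 to 0.45 for POSTN, -0.0054 to 0.11 for THBS1, -0.076 to 0.12 for SPARC, -0.12 to 0.10 for CCN1, -0.22 to 0.058 for CCN2, -0.41 to 0.056 for TGFBI and -0.58 to 0.19 for FN1. The IL-6 estimate also changed sign without the block for POSTN (0.32), without batches 2 and 4 for POSTN (0.19), FN1 (0.11), TNC (0.070) and CCN1 (0.0028), and without their vehicle libraries for POSTN (0.078), TNC (0.14) and THBS1 (-0.0034). SPARC under TGF-β changed sign without batches 2 and 4 (-0.018). Over all entries, edgeR alternatives called 0 to 133 for TGF-β against vehicle (main 102, DESeq2 526), 13 to 234 for IL-4+IL-13 against vehicle (186, 583), 51 to 1676 for TGF-β against IL-4+IL-13 (874, 1567), 0 to 236 for TGF-β against IL-6 (23, 500), 14 to 250 for IL-4+IL-13 against IL-6 (134, 377) and 0 for IL-6 against vehicle (0, 167). The lowest count of any of the 10 genes in a library was 53, for SPP1.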
